A study of Schmidtea mediterranea with 2 samples.

Results

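The cells described here are trunk cells of the planarian Schmidtea mediterranea that carry transcripts of SMESG000017804.1. They were chosen by that transcript itself: a barcode had to have at least 200 detected genes, at least 3 unique molecular identifiers (UMIs, each 1 counted transcript) of SMESG000017804.1, and these UMIs had to be at least 0.2% of the cell's total. The rule selected 126 of 12759 cells, of which 121 lay among the 6781 cells of the foxA RNAi library and 5 among the 5978 cells of the control RNAi library. The level of SMESG000017804.1 in these cells is therefore a description of the choice and not a finding. The deposited files pair these identifiers with no names, so no gene function and no cell type name is given, and the cells are called marked cells.

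Planarians rebuild any part of the body from a resident population of dividing stem cells, the neoblasts, whose progeny take on the fates of the organs. foxA encodes a forkhead transcription factor that is expressed in progenitors of the pharynx, the muscular feeding tube that lies in the trunk, and is needed to form that organ. The comparison of control and foxA RNAi cells asks which trunk cell states differ when foxA is targeted. RNAi lowers a transcript by means of double-stranded RNA of its sequence.

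Both groups came from the CIW4 strain, and 1 group received control RNAi and the other foxA RNAi. For each, trunks of 50 worms were pooled, live nucleated cells were sorted by DRAQ5 and Calcein-AM staining, and droplet 3′ libraries were made after digestion of 16S ribosomal cDNA with 30 guide RNAs and 10 further PCR cycles, per the labels' protocols. There was 1 library per condition, so nothing between the conditions has a replicate check, no test was made, and every direction rests on the library labels. The age and sex of the worms and the time since RNAi are not given in the sources used here, and foxA transcripts were not analysed here. The control library held 4329019 UMIs and the foxA library 7852495, with a median of 563 and 904 UMIs per kept cell, a ratio of 1.61. The libraries shared 13 barcodes, of which 0 belonged to a marked cell or to the closest cells described below. All intervals are exact 95% intervals and cover counting error only, and UMIs were counted after PCR.

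Marked cells made up 1.78% of the foxA RNAi cells (interval 1.48 to 2.13) and 0.0836% of the control cells (0.0272 to 0.195), a ratio of 21.3 (8.89 to 66.9). This ratio depends on depth, since the rule needs at least 3 UMIs and the foxA library was deeper per cell. With cells thinned to 400 UMIs and shallower cells left out, the shares were 1.42% and 0.110%, which stand closer together. This left 4540 control cells and all 6781 foxA cells. None of the 5 marked control cells was that shallow, the lowest total being 407 UMIs. The smaller control pool by itself raises the control share. The 121 foxA cells had between 3 and 80 UMIs of SMESG000017804.1, with a median of 20. These UMIs were from 0.202% to 7.57% of the cell's total, with a median of 1.39%. The shares ran without a gap, with 14 cells under 0.5%, 25 from 0.5% to 1%, 47 from 1% to 2% and 35 at 2% or more. Most marked cells were far from the limit in UMIs, since 95 of the 121 had at least 10. Just inside it, 2 cells had 3 UMIs and 7 had 4. Just outside it were 7 foxA cells with at least 3 UMIs, at 0.06% to 0.174% of their totals, together with 6 cells with 2 UMIs and 41 with 1. In the control library no cell with 3 or more UMIs fell outside the rule, 2 cells had 2 UMIs and 7 had 1.

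The 5 marked control cells had totals of 823, 492, 1267, 654 and 407 UMIs, 3 of them above the control median of 563. Of these UMIs 27, 11, 6, 6 and 4 were of SMESG000017804.1. The 2 cells with the most of these UMIs had shares of 3.28% and 2.24%, above the foxA median, and the other 3 had 0.474%, 0.917% and 0.983%, below it. All 5 had fewer than 500 detected genes, so a minimum of 500 genes, which lies above the control library's median of 411, left a control share of 0%. The marked foxA cells were deeper than the other cells of their library, with a median of 1336 UMIs (472 to 8801) against 897 in the other 6660 foxA cells.

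Apart from SMESG000017804.1, the marked foxA cells shared a set of abundant transcripts that were rare in the rest of the library. Against the other foxA cells, with UMIs summed over cells and scaled to a total of 1000000 per group (CPM), 582 of 1976 genes tested (29.5%) were at least 2-fold higher in the marked cells and 652 (33%) at least 2-fold lower. These counts describe how far the whole profile lies from the average foxA cell. TMM scaling shifted the median over all genes by 0.69 on the log2 scale, from -0.25 to 0.43, and gave 795 higher and 401 lower. The highest log2 ratio, on the scale of CPM plus 10, belonged to SMESG000017801.1 at 8.27. It had 5822 CPM (5490 to 6169) in the marked cells and 8.90 CPM (6.91 to 11.3) in the other foxA cells, and 119 of the 121 marked cells had a UMI of it. Next came SMESG000002883.1 at 7.49, with 11227 CPM (10764 to 11706) against 52.3 (47.3 to 57.7). At the other end stood 2 genes with 0 UMIs in the marked cells. SMESG000068743.1 had 15917 UMIs in the other foxA cells, at least 137-fold more in CPM when 0 is taken to allow 3 counts. SMESG000061316.1 had 11173 UMIs, at least 95.9-fold more, but only 0.781% of those cells held any of them.

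The 10 genes with the highest ratios, named leading genes here, were found together in single cells. They supplied a median of 7.75% of the UMIs of a marked foxA cell (0.474% to 15.0%) and a median of 0% in the other foxA cells. All 10 were detected in 38 of the 121 cells, at least 8 in 94 and at least 5 in 118. The 10 genes gave at least 5% of the UMIs in 95 cells, from 1% to 5% in 23 cells and under 1% in 3 cells. Cells with a higher share of the leading genes also had a higher share of SMESG000017804.1 (Pearson's r 0.41 and Spearman's rho 0.46 across 121 cells of 1 library, which share a preparation). Depth moved with both shares: the median was 2878 UMIs in the 3 cells under 1%, 1701 in the 23 cells from 1% to 5% and 1258 in the 95 cells at 5% or more, and the share of SMESG000017804.1 had r -0.25 and rho -0.25 with UMIs per cell. The part of depth in the relation was not tested. Since the leading genes were taken from these same cells, this describes them and is not a test.

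**Figure D1:**
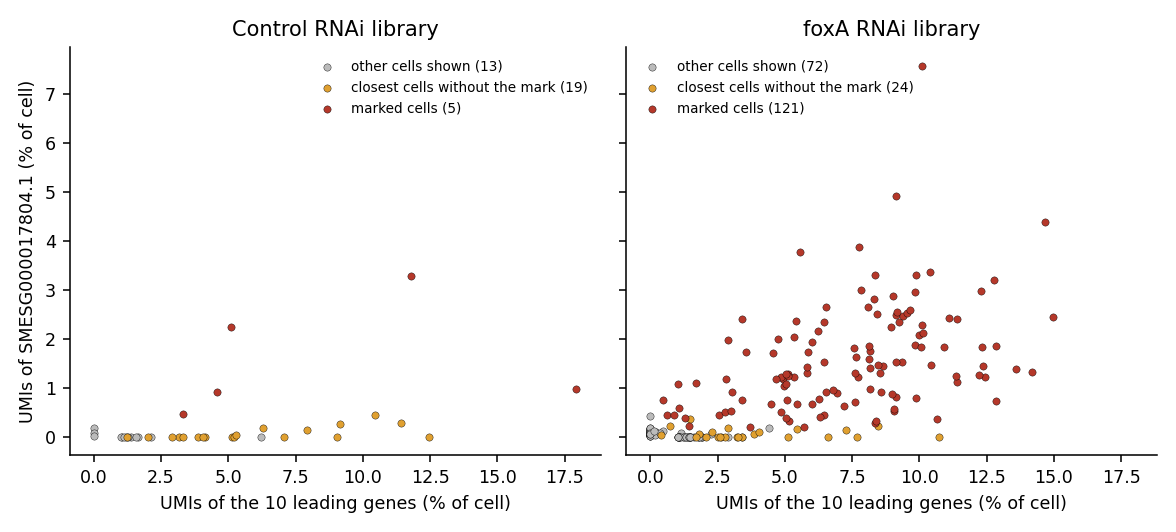
Share of each cell's UMIs from SMESG000017804.1 (vertical, %) against the share from the 10 leading genes (horizontal, %), for the control library (left) and the foxA RNAi library (right); cells with no SMESG000017804.1 UMI and under 1% leading-gene UMIs are not drawn unless they are among the closest cells. The 121 marked foxA cells spread from 0.474% to 15.0% leading-gene UMIs. Of the 15 control cells with at least 5% leading-gene UMIs, 9 have a UMI of SMESG000017804.1 and 3 are marked.

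Identifiers that mark 10 other cell classes of these libraries were nearly absent from the marked cells. A cell was said to carry another class's marker under the same limits of 3 UMIs and 0.2%. By this measure 3 of the 121 marked foxA cells (2.48%, 0.514 to 7.07) carried 1, of which 2 carried SMESG000036375.1 and 1 carried SMESG000075928.1, against 43.0% of the other foxA cells. The 10 markers summed to 224 CPM in the marked cells and to 4941 CPM in the other foxA cells. The 3 cells were among those with under 5% leading-gene UMIs. In the reverse direction, 19 of 2862 other foxA cells that carried another class's marker (0.664%, 0.400 to 1.03) had a UMI of SMESG000017804.1. This share, at a median of 1115 UMIs per cell, is taken as background here. The doublet caller did not work on these data, so no doublets were removed; 14 of the 121 marked cells (11.6%) had a doublet score above the 95th percentile of all foxA cells. The part of doublets in the profile was not tested.

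To find the control cells most like the marked cells, all cells were placed on 30 principal components computed without SMESG000017804.1. The median marked foxA cell lay at a mean Euclidean distance of 10.2 (6.04 to 31.8) from its 15 nearest control cells, against 3.54 for the other foxA cells, a ratio of 2.88. All 121 marked cells lay farther from control cells than the median other foxA cell did, and 8.99% of the other foxA cells lay farther than the median marked cell. The direction depended on the measure: with cosine distance the ratio was 0.81, so the marked cells were then nearer to control cells than other foxA cells were. Marked cells lay nearer to each other than to unmarked foxA cells, at a median of 5.48 from their 15 nearest marked cells and 14.9 from their 15 nearest unmarked foxA cells. The rule took every marked cell out of the latter. Other foxA cells lay at a median of 3.24 from their 15 nearest other foxA cells, a far larger pool, so marked cells were not closely packed by that measure. Of the 30 nearest cells in both libraries, 73.5% were marked foxA cells, 15.3% were control cells and 11.2% were other foxA cells.

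**Figure D2:**
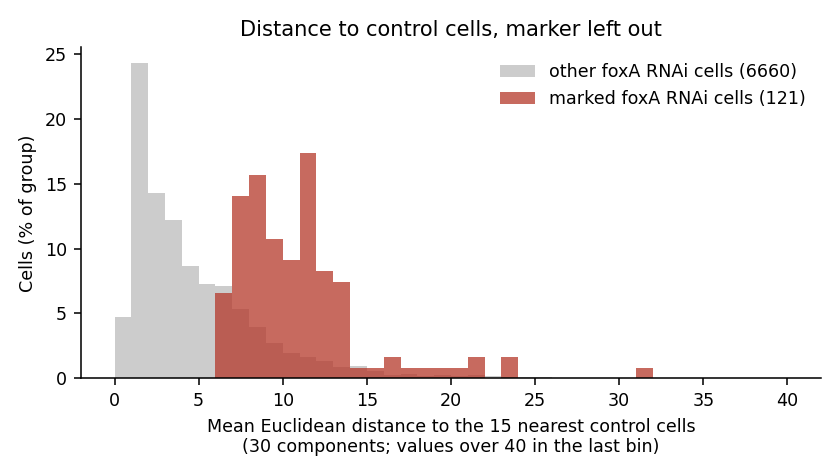
Mean Euclidean distance of each foxA RNAi cell to its 15 nearest control cells on 30 components made without SMESG000017804.1 (horizontal) and the percent of the group at that distance (vertical), for 121 marked and 6660 other foxA cells. Marked cells have a median of 10.2 and other foxA cells 3.54; the order reverses with cosine distance.

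A small and repeatable set of control cells answered the search. Of 5978 control cells, 24 were among the 15 nearest of at least 5% of the marked foxA cells, and these 24 held 92.0% of all places in the neighbour lists, while 116 further control cells shared the rest. The most listed cell was a neighbour of 110 marked cells, and 16 of the 24 were neighbours of at least 50% of them. Of the 15 nearest foxA cells of these control cells, 74.2% were marked cells and 18.1% were the closest unmarked foxA cells. These control cells were chosen for nearness to marked cells on the same components, so this is a description and not a check. Across the 10 other settings tried, the set held from 20 to 31 cells and shared from 20 to 24 cells with the 24. When the 50 genes highest in the marked cells were left out as well, 30 control cells were found, and they included all 24.

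The closest control cells held nearly all of the control library's SMESG000017804.1, which the search had not used. They had 62 of its 65 UMIs (95.4%), in 11 of the 24 cells, or 2989 CPM (2291 to 3831). The remaining 5954 control cells had 3 UMIs in 3 cells, or 0.702 CPM (0.145 to 2.05). All 5 marked control cells were among the 24. The other 19 had between 0 and 2 UMIs of it, and 13 had 0. With every cell thinned to 400 UMIs and 3 shallower cells left out, 9 of 21 closest control cells and 117 of 121 marked foxA cells had a UMI of it. The foxA library had its own unmarked neighbours of the marked cells, 24 in number under the same search, which had 29 UMIs in 11 cells, or 649 CPM (435 to 933). These were unmarked by rule, while the closest control cells include 5 marked ones, so their SMESG000017804.1 levels cannot be set against each other. The markers of the 10 other classes were carried by 0 of the 24 closest control cells (up to 14.2%) and by 3 of the 24 closest unmarked foxA cells.

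The marked foxA cells had 14179 CPM of SMESG000017804.1, 4.74-fold (3.69 to 6.21) the level in the 24 closest control cells. Together with the closest unmarked foxA cells, 145 cells in all, the level was 11677 CPM, or 3.91-fold (3.04 to 5.11). The rule itself raises both ratios, since 121 of the 145 foxA cells were admitted for this transcript and hold 2791 of their 2820 UMIs of it, while the control cells were admitted by neighbour lists alone.

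A second view, added after the data were seen, took cells by the 10 leading genes alone. Cells in which these genes gave at least 1.43% of the UMIs, the 5th percentile of the marked foxA cells, numbered 27 in the control library (0.452%, 0.298 to 0.656) and 153 in the foxA library (2.26%, 1.92 to 2.64). The share was 5.00-fold higher in the foxA library (3.30 to 7.83), against 21.3-fold for the marked cells, both without thinning. Among them, 11 of the 27 control cells (40.7%, 22.4 to 61.2) and 126 of the 153 foxA cells (82.4%, 75.4 to 88.0) had a UMI of SMESG000017804.1, and its level was 2658 CPM (2038 to 3407) in the former and 10911 CPM (10507 to 11328) in the latter. The control library thus held cells of this profile, in a lower share and with a lower summed level of SMESG000017804.1. With cells thinned to 400 UMIs the share was 4.09-fold higher in the foxA library and the level 3.50-fold. Here too shallower cells were left out, so 4540 control cells and all 6781 foxA cells remained. The leading genes had been picked for their height in marked foxA cells, so neither ratio is independent of that choice. The cells were also largely those described above. Of the 27 control cells, 23 were closest control cells. Of the 153 foxA cells, 115 were marked and 22 were closest unmarked foxA cells. The second view is thus not a separate set of cells.

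The marked foxA cells and the closest control cells also differed in other genes of the shared profile. Of 1758 genes tested, 304 (17.3%) were at least 2-fold higher in the marked foxA cells and 344 (19.6%) at least 2-fold lower. The closest control cells held 20745 UMIs in all, so 1 UMI there was worth 48.2 CPM; 129 higher and 177 lower genes had also an interval of the ratio that left out 1. TMM scaling moved the median log2 ratio by 0.52 and gave 525 higher and 155 lower, so the balance of directions depends on the scaling. The 50 genes highest in the marked cells against other foxA cells had a median log2 ratio of 0.24 (-2.16 to 3.55) beside -0.12 over all genes, with 15 at least 2-fold higher and 6 at least 2-fold lower. Under TMM the median was 0.65, with 18 higher and 2 lower. The 10 leading genes had a median of 1.54, with 6 higher and 1 lower. With the closest unmarked foxA cells added to the marked ones, the medians were 0.10 for the 50 genes and 1.34 for the 10.

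The largest differences within these 50 genes went both ways; the 4 genes given here were chosen after their values were seen. SMESG000042091.1 had 1240 CPM (244 UMIs in 89 of the 121 marked cells) against 96.4 CPM (2 UMIs, both in 1 of the 24 closest control cells), a ratio of 12.9 (3.52 to 107). SMESG000032522.1 had 12660 CPM against 2169 CPM, a ratio of 5.84 (4.35 to 8.02). Per cell, its share of UMIs was 0%, 1.11% and 3.32% at the lowest, the median and the highest in the marked cells and 0%, 0.212% and 1.05% in the closest control cells. The ranges overlapped, and 62 of the 121 marked cells lay above the highest closest control cell. The first leading gene, SMESG000017801.1, had 5822 CPM against 2266 CPM, a ratio of 2.57 (1.92 to 3.52). The closest control cells held 97.9% of the control library's UMIs of SMESG000017801.1, but 47.9% of those of SMESG000032522.1 and 6.90% of those of SMESG000042091.1. More of the control library's UMIs of the last 2 genes thus lay outside the 24 closest cells than in them. By level, SMESG000032522.1 was still higher in the closest cells, at 2169 CPM against 21.9 CPM in the whole control library. SMESG000042091.1 had 96.4 CPM against 6.75 CPM, the former from only 2 UMIs.

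SMESG000003087.1 showed the opposite pattern. It had 61123 CPM in the closest control cells and 13625 CPM in the marked foxA cells, 4.49-fold less (4.19 to 4.80). Per cell its share was 1.22%, 5.93% and 12.5% at the lowest, the median and the highest in the closest control cells, and 0%, 0.731% and 5.95% in the marked foxA cells. The closest unmarked foxA cells stood between, at 0%, 2.64% and 6.19%. Only 1 of the 121 marked cells lay above the closest control median, and 78 lay below the lowest closest control cell. The gene was still enriched in the marked cells against the rest of their own library, at 13625 CPM against 677 CPM. SMESG000014167.1, a leading gene, had 6170 CPM in the closest control cells and 1453 CPM in the marked foxA cells, 4.25-fold less (3.42 to 5.25), and 118 of the 121 marked cells lay below the closest control median of 0.661% of UMIs. Both genes were also lower with TMM scaling, at log2 ratios of -1.74 and -1.65 in place of -2.16 and -2.08, and against control cells found without the 50 genes, at -2.002 and -1.743.

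Among cells of this profile in each library, the median share of SMESG000003087.1 was lower where SMESG000017804.1 was seen. In the closest control cells its median share was 3.62% in the 11 cells with a SMESG000017804.1 UMI (1.22% to 7.22%) and 7.24% in the 13 without one (4.75% to 12.5%), and the ranges overlapped. In the 5 marked control cells the median was 2.14% (1.22% to 2.95%), and none of the 5 reached the lowest of the 13. In the closest unmarked foxA cells the medians were 1.82% in 11 cells with a UMI and 3.26% in 13 without one. In the cells taken by the leading genes alone, the medians were 3.62% in 11 and 6.41% in 16 control cells, and 0.853% in 126 and 1.70% in 27 foxA cells. These were largely cells already described here and not a separate set. Of the 27 control cells 23 were closest control cells, and of the 153 foxA cells 115 were marked. Among the marked foxA cells the shares of these 2 genes had r -0.30 and rho -0.27 across 121 cells. Whether a UMI is seen depends on depth. Among the cells taken by the leading genes, those with one were the shallower. The medians were 654 against 702.5 UMIs per cell in the 11 and 16 control cells, and 1356 against 1556 in the 126 and 27 foxA cells. In the closest unmarked foxA cells the order of depth was the opposite, with a higher median in the 11 cells with a UMI. The part of depth in these differences was not tested. SMESG000014167.1 did not follow the same order, at a median of 0.852% in the 11 control cells taken by the leading genes that had a SMESG000017804.1 UMI and 0.505% in the 16 that had none.

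**Figure D3:**
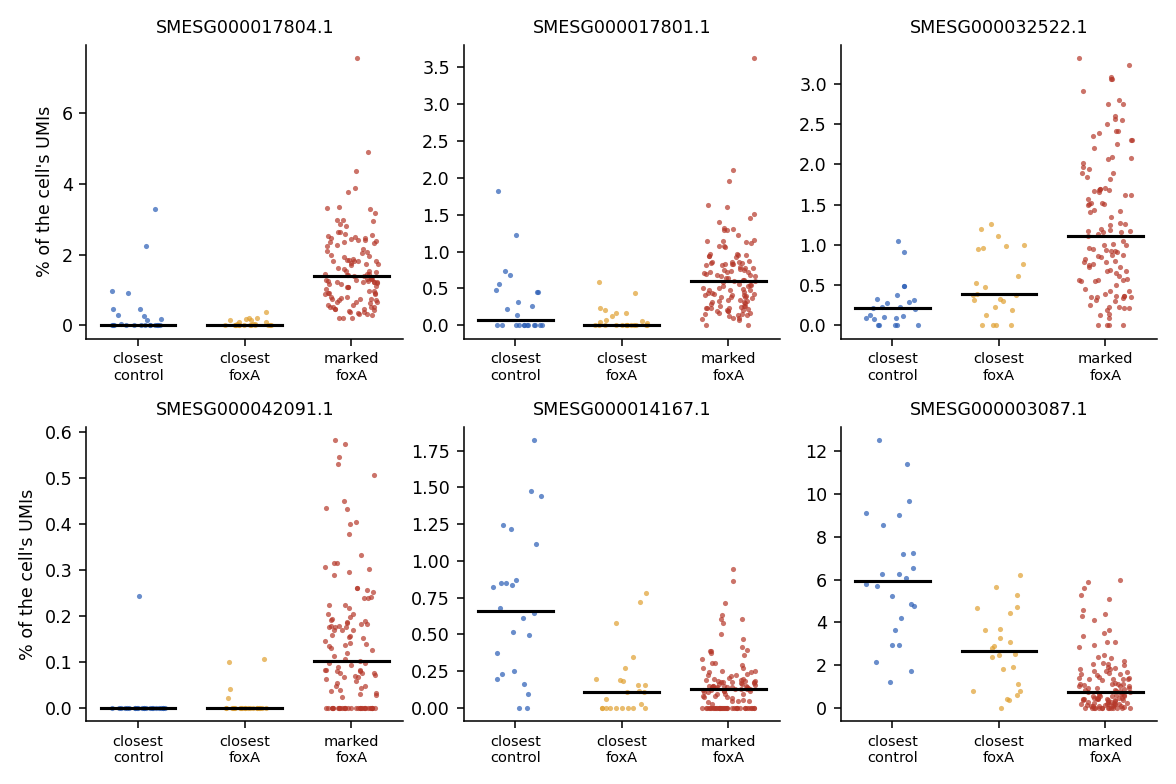
Percent of each cell's UMIs (vertical) from SMESG000017804.1, SMESG000017801.1 and 4 further genes in 24 closest control cells, 24 closest unmarked foxA cells and 121 marked foxA cells; points are cells, spread sideways for legibility, and lines are medians. SMESG000003087.1 has medians of 5.93%, 2.64% and 0.731% across the 3 groups, while SMESG000032522.1 has medians of 0.212%, 0.387% and 1.11%.

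Among all genes tested against the closest control cells, the ends of the ratio rested on few UMIs. SMESG000009012.1 had 182 UMIs in 67 marked cells and 0 in the closest control cells, at least 6.39-fold more, and it was found in 23.7% of the remaining control cells and 39.0% of the other foxA cells. This result depended on the control cells taken: against those found without the 50 genes, its log2 ratio was 1.97 in place of 6.55. SMESG000066029.1 had 158 UMIs in 13 marked cells, 67 of them in 1 cell, against 0. At the low end SMESG000043528.1 had 0 UMIs against 5, and SMESG000052475.1 had 2 against 5.

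Against the closest unmarked foxA cells of their own library, which held 44652 UMIs, fewer genes stood 2-fold apart by ratio alone. Of 1843 genes tested, 171 (9.28%) were at least 2-fold higher in the marked cells and 254 (13.8%) at least 2-fold lower. TMM, which moved the median by 0.41, gave 373 and 103. Intervals that left out 1 were found for 119 higher and 192 lower genes, beside 129 and 177 against the closest control cells. With intervals required, the counts were thus similar in both comparisons. The 50 genes highest in the marked cells had a median log2 ratio of 0.93 beside -0.13 over all genes, with 21 at least 2-fold higher and 0 lower. With TMM their median was 1.31 beside 0.28 over all genes, with 32 higher and 0 lower. SMESG000042091.1 had 1240 CPM against 112 CPM, a ratio of 11.1 (4.68 to 34.4), and SMESG000017801.1 had 5822 CPM against 717 CPM, a ratio of 8.12 (5.72 to 11.9). SMESG000014167.1 had 1453 CPM against 1165 CPM, a ratio of 1.25 (0.926 to 1.71), an interval that includes 1. The high end was set by single cells: SMESG000066414.1 had 114 UMIs against 0, with 112 in 1 cell, and SMESG000020860.1 had 95 against 0, with 79 in 1 cell. At the low end SMESG000006021.1 had 0 UMIs against 30, in 4 of the 24 closest unmarked foxA cells, and SMESG000019718.1 had 3 against 13.

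The closest unmarked foxA cells were also set against the closest control cells, which include the 5 marked control cells. The rule took every marked cell out of the foxA side only, so the 50 genes, chosen on the marked cells, carry that choice in the values that follow. Of 1793 genes tested, 392 (21.9%) were at least 2-fold higher in the closest unmarked foxA cells and 355 (19.8%) at least 2-fold lower. Intervals that left out 1 were found for 120 and 98 of them, and TMM scaling, which moved the median by 0.24, gave 489 higher and 226 lower. Of those 50 genes 47 were tested, with 2 at least 2-fold higher, 17 lower and a median log2 ratio of -0.56 beside 0.09 over all genes. Under TMM these 47 had 4 higher, 9 lower and a median of -0.32 beside 0.34 over all genes. SMESG000003087.1 was lower here too, at 26740 CPM against 61123 CPM, 2.29-fold less (2.11 to 2.48), and SMESG000014167.1 at 1165 CPM against 6170 CPM, 5.30-fold less (3.81 to 7.46). SMESG000032522.1 was higher, at 5688 CPM against 2169 CPM, a ratio of 2.62 (1.90 to 3.69). The lower SMESG000003087.1 and SMESG000014167.1 and the higher SMESG000032522.1 were therefore seen in marked and unmarked foxA cells of this profile, whereas SMESG000042091.1 had 5 UMIs in the closest unmarked foxA cells and 2 in the closest control cells (ratio 1.16, 0.190 to 12.2). The ends of this comparison were SMESG000006589.1, with 62 UMIs against 0, and SMESG000044681.1, with 44 against 0, on the high side, and SMESG000063559.1, with 0 against 9, and SMESG000020473.1, with 0 against 6, on the low side.

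**Figure D4:**
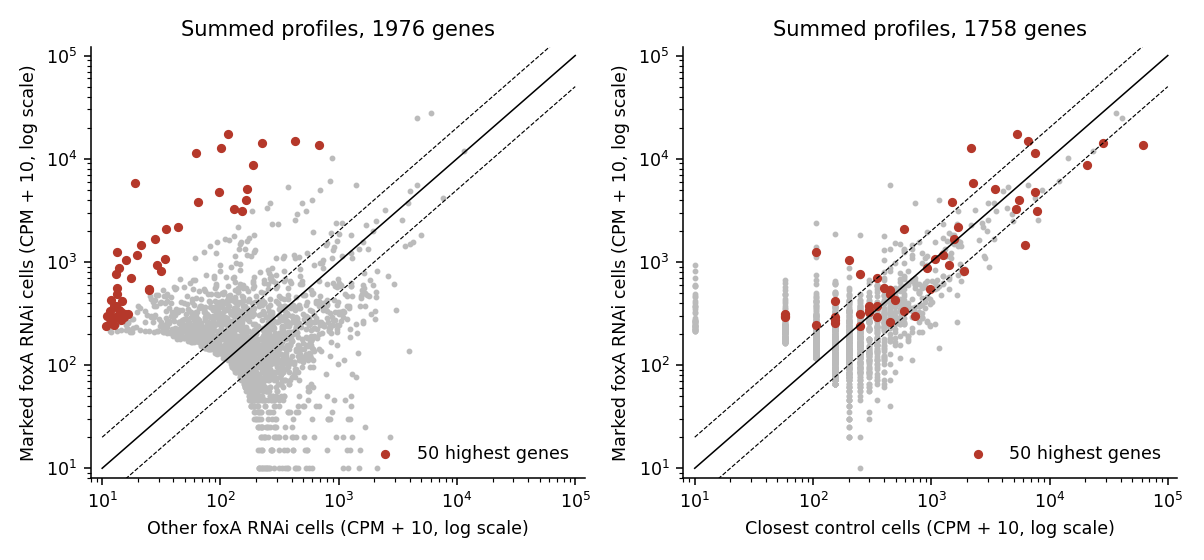
Summed expression of 1976 genes in marked and other foxA RNAi cells (left) and of 1758 genes in marked foxA and closest control cells (right), as CPM plus 10 on log axes; the solid line marks equal levels, dashed lines 2-fold differences, and red points the 50 genes highest in marked cells against other foxA cells. These lie above the lines on the left by construction and on both sides of the diagonal on the right, with a median log2 ratio of 0.24.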

How the data were processed

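Single-cell 3′ RNA libraries of 1 control RNAi and 1 foxA RNAi sample were deposited as counts of UMIs per gene and barcode, not normalized, by the authors. Cell Ranger 6.1.2 wrote the matrices, per the file headers, while the submitters' processing notes name version 7; the genome build is not given in the sources used here. Barcodes already had at least 286 (control) and 440 (foxA) UMIs. Requiring 200 genes removed 78 and 17 cells.

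UMIs were summed over cells, scaled to CPM, and compared as log2 of (CPM + 10) ratios for genes with a mean of at least 100 CPM. Neighbours came from scanpy 1.11.5: counts scaled to 10000 per cell, log-transformed, 2000 variable genes standardised and capped at 10, 30 components, 15 neighbours, without SMESG000017804.1. Closest cells were listed by at least 5% of marked foxA cells. TMM factors came from edgeR 4.0.16, and shares and sums have exact binomial and Poisson intervals. Scrublet called 1 control and 0 foxA cells. Scripts were checked on simulated data. Cells are not replicates, so no p-value is given.

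Named genes were SMESG000017804.1, the other classes' markers and the 2 highest and 2 lowest ratios of each comparison. The 2 highest and 2 lowest of the 50 genes against closest control cells were added after their values were seen. Of these, SMESG000003087.1 is not a leading gene, and the others are. The cells, markers and lists were chosen with earlier results of these data known. Gene names and sequences were not used here.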

Additional observations from a re-analysis of the deposited data

How the results depend on the processing

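The share of marked cells was 1.42% of foxA cells when cells were thinned to 400 UMIs and 0% of control cells at 500 genes. The ratio of distances to control cells was 2.42 with 5 neighbours, 3.83 with 10 components, 1.86 with 50 components, 2.12 without the 50 highest genes, 2.52 with thinned cells, and reversed to 0.81 with cosine distance; the cause was not tested. The SMESG000017804.1 ratio in cells rich in the leading genes was 3.17 at a share of 5%. Counts of genes 2-fold apart followed the genes tested and are given as higher and lower, at minimums of 50 and then 200 CPM: marked against other foxA cells 1002 and 1365, then 254 and 291; against closest control cells 648 and 636, then 123 and 150; against closest unmarked foxA cells 409 and 562, then 75 and 111; closest unmarked foxA against closest control cells 788 and 578, then 169 and 142. With TMM, 401 genes were lower in marked than in other foxA cells, 525 were higher and 155 lower than in closest control cells, and 373 higher and 103 lower than in closest unmarked foxA cells; 226 were lower in closest unmarked foxA than in closest control cells. Requiring an interval that left out 1 gave 129 and 177 against closest control cells, and 120 and 98 for the closest unmarked foxA cells. A pseudocount of 50 CPM gave 166 lower against closest unmarked foxA cells. Another 82 values of these comparisons held within their limits. Of the ratios of single genes, 107 held, 38 moved and none changed direction under the settings tried. The alternatives for cells taken by their leading genes, for UMIs held by the closest control cells and for closest unmarked foxA against closest control cells were added after seeing the data. No paired analysis was possible because there was only 1 library of each kind, which also means that no library could be left out. The 20745 UMIs of the closest control cells limit what can be seen of genes near 100 CPM.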
